A study of Mus musculus with 3 samples.

Results

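The genes described here are 48 genes of innate sensing and of the NF-kappaB pathway, taken by symbol from the 24063 genes counted in mouse blastocysts. All 48 symbols were found, and 36 of these genes had enough counts to be tested. The study asked whether immune transcription programs already differ before implantation between an autoimmune-prone and a healthy mouse strain. B6 (C57BL/6) is the healthy strain, and NOD is the strain that is prone to autoimmune diabetes. There was 1 B6 library and there were 2 NOD libraries, called NOD 1 and NOD 2, all from untreated pre-implantation blastocysts, with no genetic change in either strain. Age in days and litter were not given in the labels. The labels give whole blastocysts as the input, whereas the methods of the study describe single inner cell masses isolated by immunosurgery, and the values are therefore given for blastocysts.

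Innate sensing starts with receptors that recognise molecules of microbes or of damaged cells. Toll-like receptors lie at the cell surface or in endosomes and signal through the adaptors Myd88 or Ticam1. Myd88 recruits the IRAK kinases. Both routes reach TRAF ubiquitin ligases and the TAK1 kinase, which activates the IKK complex. IKK marks the inhibitors Nfkbia and Nfkbib for destruction and so frees NF-kappaB dimers to enter the nucleus, while cytosolic sensors feed into inflammasomes, which mature interleukin 1 beta and interleukin 18, or into Tbk1 and the IRF factors. These genes are best known from macrophages and other leukocytes, although the shared signalling kinases are made in many cell types.

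Counts on genes summed to 12505685 in B6 and to 33891715 and 36171013 in NOD, and values are given as CPM, the usual measure of counts relative to the size of the library, on the scale of edgeR's TMM factors. The upper limit that a count of 0 allows was set at 3 counts and called the floor, which was 0.220 CPM in B6, against 0.0908 in NOD 1 and 0.0882 in NOD 2. Floors and intervals cover counting error only, since the cDNA was amplified by PCR without molecular identifiers. Of 7 leukocyte markers, 4 had 0 counts in every library, Ptprc and Lyz2 among them, and the summed level of the list was 0.294 CPM in B6, against 0.363 in NOD 1 and 1.03 in NOD 2. Most of the NOD sums was Coro1a, with 1 count in B6, against 10 in NOD 1 and 32 in NOD 2 (0.303 and 0.940 CPM in NOD). It was the 1 marker of this list that was tested, and it did not pass (edgeR adjusted p = 0.356). Trophectoderm markers summed to 2902 CPM in B6, against 1649 in NOD 1 and 1527 in NOD 2, and the 6 of 7 that were tested were all lower in both NOD libraries, with 0 of 6 past the threshold in edgeR's test, 4 at an unadjusted p under 0.05 (beside 39.9% of all genes tested), and 2 called lower by DESeq2 (beside 13.1% of all genes tested) and 0 by limma-voom. Epiblast markers summed to 364, 410 and 576 CPM in B6, NOD 1 and NOD 2, with Pou5f1 between 109 and 181 CPM. Among them Sox2 fell in NOD, Nanog was at 118.5, 217 and 337 CPM without passing the test (edgeR adjusted p = 0.0752), and Esrrb was at 41.3, 4.93 and 14.3 CPM, also without passing it. Of 5 primitive endoderm markers, all tested, Gata6 fell and Pdgfra rose, beside 7.39% of all genes tested that fell and 10.3% that rose. The list summed to 391 CPM in B6 and to 118 and 158 CPM in NOD. Most of each sum was Gata6, at 385 (B6), 91.5 (NOD 1) and 130 CPM (NOD 2). Gata4 was higher in both NOD libraries without passing the test (edgeR adjusted p = 0.154), and the median log2 fold change of the list was 2.13. Of 9 markers of the maternal tract and follicle, 4 had 0 counts in every library. The list summed to 3.89, 25.9 and 17.5 CPM, most of it Pecam1, at 3.67 (B6), 25.4 (NOD 1) and 16.4 CPM (NOD 2). Every other marker of this list was at or below 0.588 CPM in each library, so the sums describe Pecam1 and not the list. The part of these markers in the results was not tested. NOD 2 stood apart in sex-linked genes, which were looked at after the other values were seen. The 4 Y-linked genes Ddx3y, Eif2s3y, Kdm5d and Uty summed to 192 CPM in B6 and 226 in NOD 1 and had 0 counts in NOD 2, and Xist, the RNA of the inactive X chromosome, was at 19.9, 2.03 and 118 CPM.

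Of the 48 genes, 9 were silent, with 0 counts in all 3 libraries: the receptors Tlr3, Tlr4, Tlr5, Tlr6, Tlr7 and Tlr9, the inflammasome protease Casp1, the cytokine Il1b, and Tmem173, the adaptor of cytosolic DNA sensing. That is 18.75% of the members, beside 30.3% of all 24063 genes. At least 1 count was found for 33 members in B6, against 37 in NOD 1 and 35 in NOD 2, and 15 members were at 10 CPM or more in all 3 libraries. The summed level of all members was 799.8 CPM in B6, against 507.7 in NOD 1 and 540.9 in NOD 2. Since these are bulk libraries, fewer cells of a type and less RNA per cell cannot be told apart.

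**Figure D1:**
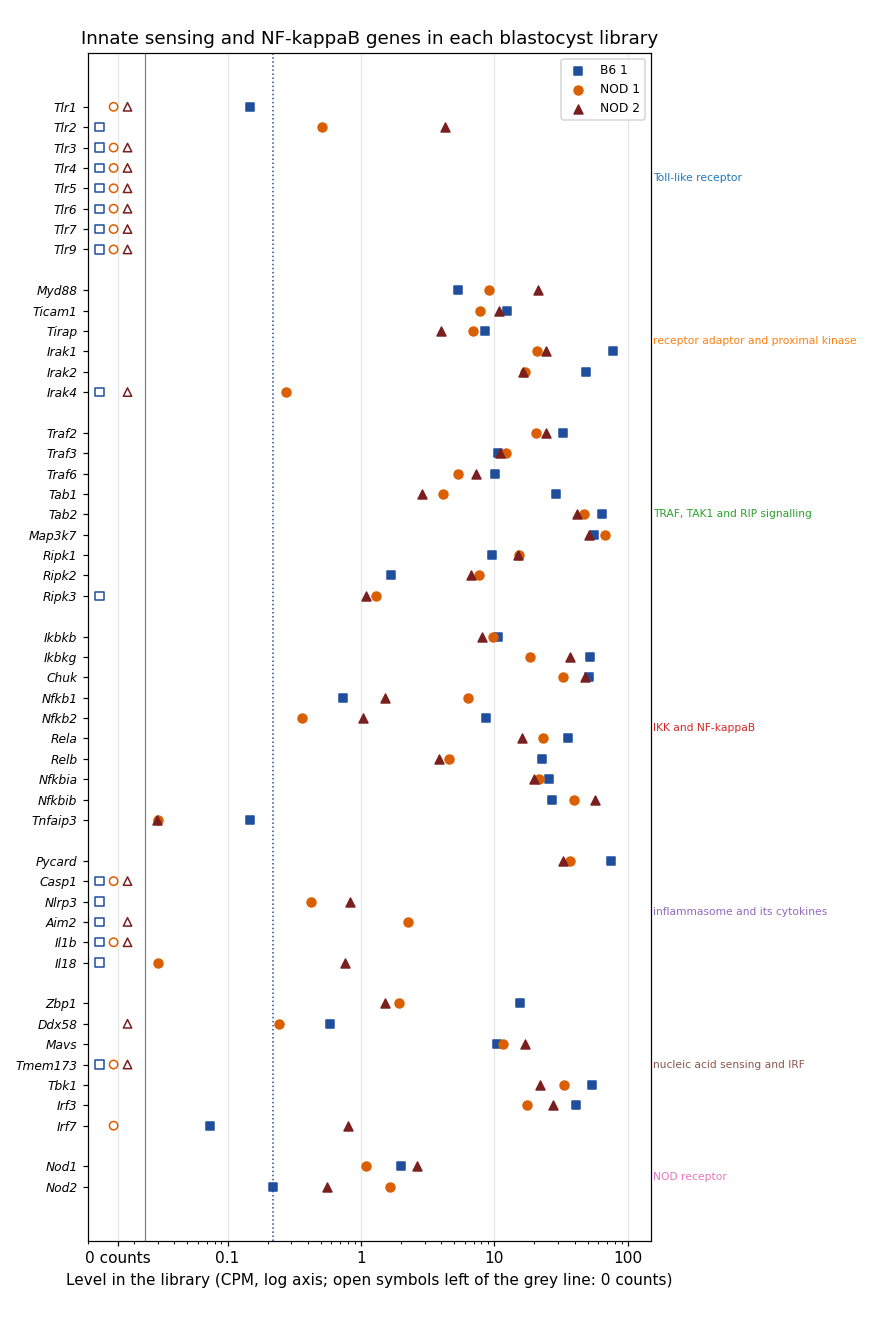
Level of the 48 genes in each library, in CPM on a log axis, grouped by role, with blue squares for B6, orange circles for NOD 1 and dark red triangles for NOD 2. Open symbols left of the grey line had 0 counts and the dotted line is the B6 floor of 0.220 CPM; 6 of 8 Toll-like receptors had open symbols in every library, whereas most adaptors, TRAF and IKK genes sat between 1 and 100 CPM.

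Compared to B6, 4 of the 36 members tested fell in NOD blastocysts and 0 rose. The genes that fell were Tab1, Zbp1, Relb and Irak1, at an adjusted p under 0.05 in edgeR's quasi-likelihood test with Benjamini-Hochberg adjustment over 14456 genes and at least a 2-fold change. These are 11.1% of the members tested, beside 7.39% of all genes tested that fell and 10.3% that rose. At an unadjusted p under 0.05 there were 7 members lower and 3 higher in NOD (27.8% of the members tested, beside 39.9% of all genes tested), and among other tools DESeq2 called 7 lower and 1 higher, the latter Tlr2, beside 13.1% and 16.4% of all genes tested, while limma-voom called 0 in either direction. With no filter on low counts edgeR called 0 as well, and over all alternatives the highest adjusted p was 0.0731 for Tab1, 0.0836 for Zbp1, 0.0877 for Relb and 0.0787 for Irak1. The median log2 fold change of the members tested was -0.34, beside 0.26 for all genes tested. In 20 members (55.6%) both NOD libraries were lower than B6, beside 39.4% of all genes tested, and in 12 (33.3%) both were higher, beside 45.3%. The NOD libraries were within 2-fold of each other for 26 of the 32 members with more than 3 counts in both. Taken alone against B6, NOD 1 gave log2 fold changes of -2.80 for Tab1, -3.003 for Zbp1, -2.32 for Relb and -1.91 for Irak1, and NOD 2 gave -3.30, -3.33, -2.56 and -1.67 for the same genes, values without a test. With 1 library against 2, an exact permutation test of a single gene cannot go below p = 0.333, and the fit takes its spread from the NOD libraries and assumes that B6 varies alike. Nothing in the labels says that the NOD libraries came from separate animals or litters, so p-values measure only the spread between these samples. The NOD libraries also differed in the Y-linked genes, at 226 CPM in NOD 1 and 0 in NOD 2, and the part of that difference in the spread was not tested.

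**Figure D2:**
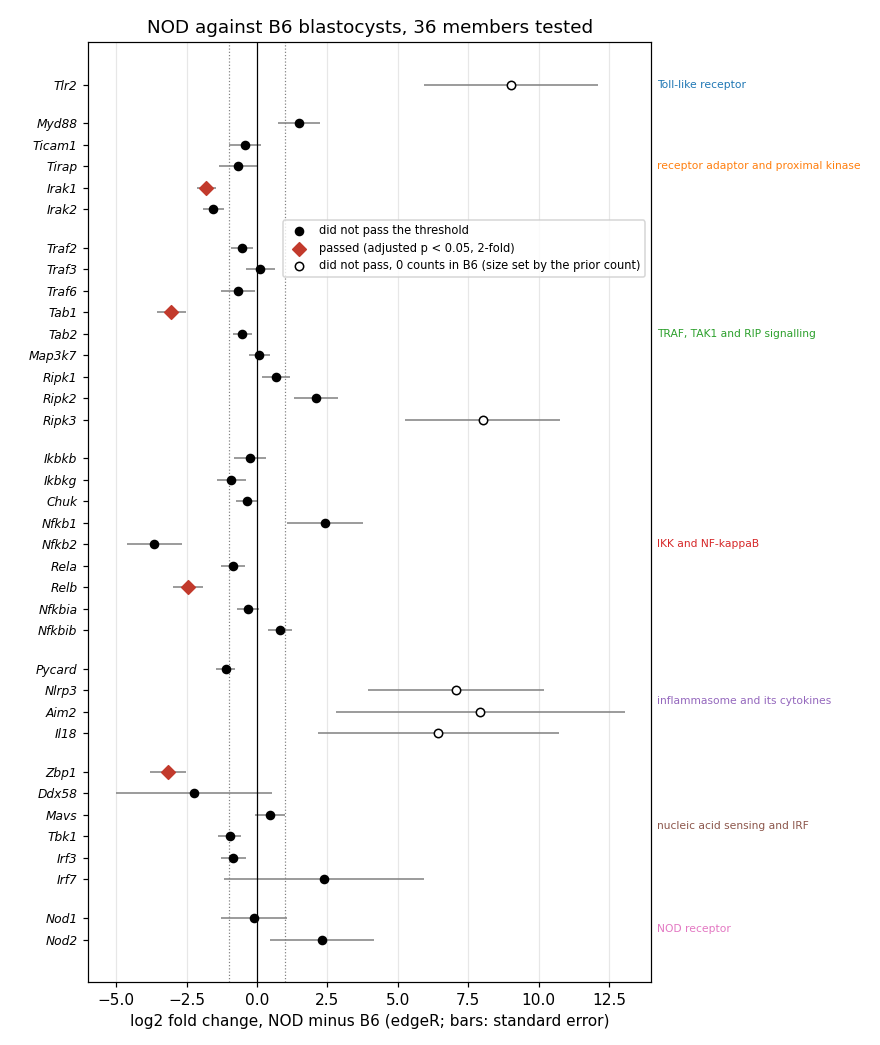
Log2 fold change (NOD minus B6) of the 36 members tested, with the standard error as a bar, grouped by role. Red diamonds passed the threshold, all 4 of them left of 0, and open circles are the 5 genes with 0 counts in B6, whose fitted size depends on the prior count.

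Among the Toll-like receptors, Tlr2 was the one receptor with more than 3 counts in any library. Tlr2 recognises bacterial lipoproteins together with Tlr1 or Tlr6. It had 0 counts in B6, against 17 in NOD 1 and 146 in NOD 2, or 0.514 and 4.29 CPM in NOD. Both NOD libraries were above B6, and NOD 2 was 8.34 times as high as NOD 1. The NOD mean of 2.403 ± 2.67 CPM (SD, n = 2) was at least 10.9-fold higher than B6, taken against the B6 floor, but Tlr2 did not pass the test (edgeR adjusted p = 0.102). DESeq2 called it (adjusted p = 0.0395, with a range of 0.0395 to 0.661 over the alternatives). Its partner Tlr1 had 2 counts in B6 and 0 in both NOD libraries, at or under the floor in both strains, and 15.4% of the 50-base words in its transcripts also occur in another gene. The partner Tlr6 was silent. The silent receptors include the sensor of lipopolysaccharide (Tlr4), of flagellin (Tlr5) and of endosomal double-stranded RNA (Tlr3), single-stranded RNA (Tlr7) and unmethylated DNA (Tlr9).

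Of the 6 adaptors and proximal kinases, 5 were counted in every library, the exception being Irak4, and Irak1 fell in NOD. Irak1 is a kinase recruited through Myd88 to Toll-like and interleukin 1 receptors (NM_001177973, chrX:74013914-74023921, minus strand, mm10). It was counted 1065 times in B6, against 686 in NOD 1 and 826 in NOD 2, which is 78.2, 20.8 and 24.3 CPM. B6 was above both NOD libraries, which lay close together at 22.5 ± 2.49 CPM (SD, n = 2). The level was 3.47-fold higher in B6 than in NOD, with a log2 fold change of -1.80 (SE 0.35, edgeR adjusted p = 0.0371). Its gene is one of 3 members on the X chromosome, and the part of the sex-linked difference between the NOD libraries in its values was not tested. The spans of the microRNA genes Mir5132 and Mir718 overlap Irak1 in the table, and reads were counted on both strands together.

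Irak2, a related kinase, came next at 48.7 CPM in B6, against 16.9 in NOD 1 and 16.4 in NOD 2. The NOD libraries were lower and nearly equal, but the adjusted p of edgeR was 0.0513 (range 0.0145 to 0.106 over the alternatives, 4 of which called it). Myd88, the adaptor of most Toll-like receptors, was at 5.36 CPM in B6, against 9.20 in NOD 1 and 21.2 in NOD 2. Both NOD libraries were above B6, and they differed 2.30-fold from each other (log2 fold change 1.502, SE 0.74, edgeR adjusted p = 0.198). Ticam1, the adaptor of Tlr3 and Tlr4, ranged from 7.87 to 12.5 CPM, and Tirap, which bridges Tlr2 and Tlr4 to Myd88, from 3.97 to 8.59 CPM, with B6 the highest in both. Per kilobase of transcript, Irak1 had the highest mean level of this role at 10.4 CPM per kb, while Irak2 was slightly higher in NOD 1 and Myd88 in NOD 2. The lowest was Irak4, the kinase that acts before Irak1, with 9 counts in NOD 1 and 0 in B6 and NOD 2, and it was not tested.

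In the group of TRAF, TAK1 and RIP genes, the TAK1-binding protein Tab1 fell while the kinase itself and its partner Tab2 did not pass the test. Tab1 activates TAK1 (NM_025609, chr15:80133154-80161702, plus strand, mm10). Its counts were 392 in B6, against 136 in NOD 1 and 98 in NOD 2, or 28.8, 4.11 and 2.88 CPM. Tab1 was far lower in both NOD libraries than in B6, at 3.50 ± 0.87 CPM (SD, n = 2), an 8.23-fold difference (log2 fold change -3.04, SE 0.53, edgeR adjusted p = 0.0310). None of the 50-base words of Tab1 occur in another gene.

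Map3k7, which encodes TAK1, was at 56.2 CPM in B6, against 68.0 in NOD 1 and 51.3 in NOD 2. B6 lay between the NOD libraries (log2 fold change 0.09, SE 0.37), and the sign of the change turned with scaling by total counts only. Tab2, a ubiquitin-binding partner of TAK1, had the highest mean level of the group at 11.95 CPM per kb, below Map3k7 in NOD 1, and was at 64.0, 47.1 and 42.0 CPM in B6, NOD 1 and NOD 2 (edgeR adjusted p = 0.298). Among the ligases, Traf2 ranged from 20.7 to 32.7 CPM and Traf6, the ligase of the Toll-like receptor branch, from 5.33 to 10.1 CPM, each highest in B6. Traf3, which restrains alternative NF-kappaB signalling, stayed between 10.6 and 12.2 CPM (log2 fold change 0.12, SE 0.52, with the opposite sign under total counts only).

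The 3 receptor-interacting kinases were higher in both NOD libraries, without passing the test. Ripk1, a hub of TNF receptor signalling, was at 9.61 CPM in B6, against 15.4 in NOD 1 and 15.1 in NOD 2 (edgeR adjusted p = 0.358). Ripk2, the kinase of the Nod1 and Nod2 receptors, was at 1.69, 7.69 and 6.70 CPM, 4.26-fold higher in NOD (edgeR adjusted p = 0.119, and 0.119 to 0.319 over the alternatives). Ripk3, the kinase of necroptosis, was the lowest of the group. It had 0 counts in B6, against 43 in NOD 1 and 37 in NOD 2, and the NOD mean of 1.19 ± 0.15 CPM (SD, n = 2) was at least 5.42-fold higher than the B6 floor (edgeR adjusted p = 0.0991).

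Of the 4 NF-kappaB subunits among the members, Relb fell, and the others did not pass the test, Rela and Nfkb2 being lower and Nfkb1 higher in both NOD libraries. Relb is the subunit of the alternative pathway that pairs with the product of Nfkb2 (NM_009046, chr7:19606222-19629438, minus strand, mm10). It had 311 counts in B6, against 151 in NOD 1 and 130 in NOD 2, or 22.8, 4.57 and 3.82 CPM. Relb was lower in both NOD libraries, which were near each other at 4.19 ± 0.53 CPM (SD, n = 2), 5.44-fold lower than B6 (log2 fold change -2.44, SE 0.52, edgeR adjusted p = 0.0430). Nfkb2 was at 8.73 CPM in B6, against 0.363 in NOD 1 and 1.03 in NOD 2, and both NOD libraries were lower. Its adjusted p of edgeR was 0.0644 (0.0345 to 0.115 over the alternatives), 14.9% of its 50-base words occur in another gene, and the span of Psd overlaps it.

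Rela, the main activating subunit of the classical pathway, was at 35.4 CPM in B6, against 23.1 in NOD 1 and 16.3 in NOD 2, and both NOD libraries were lower without passing the test (edgeR adjusted p = 0.205). Nfkb1, its partner, had 10 counts in B6, against 210 in NOD 1 and 52 in NOD 2, or 0.734, 6.35 and 1.53 CPM. Both NOD libraries were higher and they differed 4.16-fold from each other, and the pooled NOD counts were 5.32 times the B6 count after scaling (95% interval 2.85 to 11.2, edgeR adjusted p = 0.239). The fifth subunit, Rel, is not a member and is counted with the regulators of NF-kappaB.

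The kinases and inhibitors around NF-kappaB were among the more abundant members. Chuk, the IKK kinase of the alternative pathway, was at 51.3, 32.8 and 47.6 CPM in B6, NOD 1 and NOD 2, and Ikbkb, the kinase of the classical pathway, at 10.6, 9.83 and 8.08 CPM. Ikbkg, the scaffold subunit, was at 52.0 CPM in B6, against 18.5 in NOD 1 and 36.9 in NOD 2. It lies on the X chromosome, as Irak1 and Tlr7 do, and the NOD libraries differed 1.99-fold, NOD 2 being the higher (edgeR adjusted p = 0.248). Nfkbia, the inhibitor that NF-kappaB itself induces, was at 25.7, 21.5 and 19.7 CPM, and its range over the libraries was the narrower of the inhibitors. Nfkbib had the highest mean level of the role at 21.2 CPM per kb, although Nfkbia and Chuk were higher per kb in B6, with 27.2 CPM in B6, against 39.5 in NOD 1 and 56.7 in NOD 2, both NOD libraries higher without passing the test (edgeR adjusted p = 0.213). For Nfkbib, 12.6% of the words occur in another gene, and Gm6537 overlaps its span. Tnfaip3, the ubiquitin-editing enzyme that shuts the pathway off, was the lowest, with 2 counts in B6 and 1 in each NOD library, under the floor in both strains.

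The inflammasome genes were at opposite ends of the range. Pycard, the adaptor that joins sensors to caspase 1, had the highest mean level per length of all 48 members, at 22.5 CPM per kb (35.0 in B6, 17.2 in NOD 1 and 15.4 in NOD 2, with Nfkbib higher in both NOD libraries), whereas its partner protease Casp1 and the substrate Il1b were silent. Pycard had 1016 counts in B6, against 1214 in NOD 1 and 1114 in NOD 2, or 74.6, 36.7 and 32.7 CPM. Pycard was lower in both NOD libraries, at 34.7 ± 2.82 CPM (SD, n = 2), 2.15-fold, but the test was not passed (log2 fold change -1.10, SE 0.34, edgeR adjusted p = 0.0821, and 0.0338 to 0.144 over the alternatives). In Pycard, 11.7% of the words occur in another gene.

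The sensors Nlrp3 and Aim2 and the cytokine Il18 had 0 counts in B6. Nlrp3, the sensor of cell stress and ion flux, had 14 counts in NOD 1 and 28 in NOD 2, and the mean of 0.62 ± 0.28 CPM (SD, n = 2) was at least 2.83-fold above the B6 floor (edgeR adjusted p = 0.158). Aim2, the sensor of cytosolic double-stranded DNA, had 75 counts in NOD 1, or 2.27 CPM, and 0 in NOD 2. The groups overlapped at 0, and NOD 1 was at least 25.7-fold higher than NOD 2, so Aim2 was detected in NOD 1 alone (edgeR adjusted p = 0.296 for the strains). Il18 had 1 count in NOD 1 and 26 in NOD 2, and this single count is within the floor.

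Among the cytosolic nucleic acid sensors, Zbp1 fell. Zbp1 binds left-handed double-stranded nucleic acid and engages Ripk3 (NM_001139519, chr2:173213736-173218922, minus strand, mm10). Its counts were 212 in B6, against 64 in NOD 1 and 52 in NOD 2, or 15.6, 1.94 and 1.53 CPM. Zbp1 was lower in both NOD libraries, at 1.73 ± 0.29 CPM (SD, n = 2), 8.98-fold lower (log2 fold change -3.16, SE 0.64, edgeR adjusted p = 0.0393). The counts were made on a transcript of 775 bases, and none of its 50-base words occur in another gene. Zbp1 and its partner Ripk3 thus stood in opposite order in the strains, although the change of Ripk3 did not pass the test.

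The kinase Tbk1 and its substrate Irf3, which drive interferon genes, were abundant and lower in both NOD libraries without passing the test. Irf3 had the highest mean level of its role, at 13.2 CPM per kb, although Zbp1 was higher per kb in B6 and Tbk1 in NOD 1, with 40.7 CPM in B6, against 17.7 in NOD 1 and 27.7 in NOD 2 (edgeR adjusted p = 0.221). Tbk1 was at 54.0, 33.2 and 22.1 CPM (edgeR adjusted p = 0.156). Mavs, the mitochondrial adaptor of RNA sensing, was at 10.4 CPM in B6, against 11.7 in NOD 1 and 17.0 in NOD 2. Ddx58, an RNA sensor upstream of Mavs, was near the floor, with 8 counts in B6, against 8 in NOD 1 and 0 in NOD 2. Its scaled ratio of NOD to B6 was 0.203 (95% interval 0.0665 to 0.621, counting error only), and it did not pass the test (edgeR adjusted p = 0.559). Irf7, the interferon-induced factor, had 1 count in B6, against 0 in NOD 1 and 27 in NOD 2, and the scaled ratio of 5.48 had an interval from 0.904 to 224.5.

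The cytosolic peptidoglycan receptors Nod1 and Nod2, whose names are unrelated to that of the strain, were low in all libraries. Nod1 was at 1.98 CPM in B6, against 1.09 in NOD 1 and 2.62 in NOD 2, with B6 between the NOD libraries. Nod2 had 3 counts in B6, against 55 in NOD 1 and 19 in NOD 2, and the scaled ratio of NOD to B6 was 5.01 (95% interval 1.65 to 24.8, edgeR adjusted p = 0.381). Counts were found for both in every library, although the 3 counts of Nod2 in B6 lie at the floor.

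Outside the 48 members, 125 other genes of the pathway were listed by role. Of these, 28 were silent in all libraries (22.4%, beside 30.3% of all genes) and 86 were tested, with a median log2 fold change of 0.60, beside 0.26 for all genes tested. Of the 86, 5 rose and 5 fell, which is 5.81% in each direction, beside 10.3% of all genes tested that rose and 7.39% that fell. Each of these 10 genes lost its call in limma-voom and with no filter on low counts, where edgeR without the filter and limma-voom called 0 of all genes. At an unadjusted p under 0.05, 16 were higher and 9 lower in NOD (29.1%, beside 39.9% of all genes tested). DESeq2 called 13 of the 86 higher and 10 lower, beside 16.4% and 13.1% of all genes tested. Of 13 accessory proteins and co-receptors of the Toll-like receptors, 4 were silent (30.8%) and 8 tested, of which 2 rose (25.0%) and 1 fell (12.5%). Hsp90b1, a chaperone that folds Toll-like receptors, rose from 351.7 CPM in B6 to 1218 in NOD 1 and 925.1 in NOD 2 (log2 fold change 1.61, SE 0.27, edgeR adjusted p = 0.0290). Its co-chaperone Cnpy3 fell from 67.5 CPM to 10.8 and 11.8 (log2 fold change -2.58, SE 0.36, edgeR adjusted p = 0.0242). Irak3, an IRAK family member that restrains the other kinases, rose from 1 count in B6 to 354 in NOD 1 and 319 in NOD 2, a scaled ratio of 136.7 with an interval from 24.5 to 5407 (edgeR adjusted p = 0.0253, up to 0.394 over the alternatives, of which 4 of 7 called it).

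In the interleukin 1 and TNF receptor branch, 3 of 16 genes were silent (18.8%, beside 30.3% of all genes) and 13 tested, of which 1 rose (7.69%, beside 10.3% of all genes tested). This was the interleukin 1 receptor Il1r1, with 0 counts in B6, against 74 in NOD 1 and 149 in NOD 2, at least 15.0-fold higher in NOD (edgeR adjusted p = 0.0481, and up to 0.451 over the alternatives, of which 2 of 7 called it). Of its ligands, Il1b was silent and Il1a had 0 counts in B6, against 19 in NOD 1 and 9 in NOD 2 (edgeR adjusted p = 0.199). Of 32 regulators of NF-kappaB, 2 were silent (6.25%) and 27 tested, of which 1 rose (3.70%, beside 10.3% of all genes tested) and 2 fell (7.41%, beside 7.39%). Rbck1, a subunit of the ligase that makes linear ubiquitin chains, fell from 124.9 CPM to 26.5 and 27.0 (log2 fold change -2.22, SE 0.32, edgeR adjusted p = 0.0242). The ubiquitin ligase Birc3 fell from 31.3 CPM to 5.57 and 7.41 (edgeR adjusted p = 0.0413, with 4 of 7 alternatives calling it). Ube2v1, a partner of the enzyme that makes ubiquitin chains for Traf6, rose from 2.57 to 19.4 and 27.5 CPM (edgeR adjusted p = 0.0349), but 63.5% of its words occur in another gene.

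Of 26 other nucleic acid sensors and their effectors, 3 were silent (11.5%, beside 30.3% of all genes) and 21 tested. Of these, 2 fell (9.52%, beside 7.39% of all genes tested) and 0 rose (beside 10.3%). At an unadjusted p under 0.05 in edgeR, 3 were higher and 4 lower (33.3%, beside 39.9% of all genes tested). DESeq2 called 2 higher and 4 lower, beside 16.4% and 13.1% of all genes tested. Ikbke, the kinase most related to Tbk1, had 182 counts in B6, against 17 in NOD 1 and 6 in NOD 2 (log2 fold change -5.26, SE 0.94, edgeR adjusted p = 0.0329). Adar, which edits double-stranded RNA, fell from 77.1 to 16.0 and 6.99 CPM (edgeR adjusted p = 0.0407, with 4 of 7 alternatives calling it). In Adar, 14.4% of the words occur in another gene, and the span of Chrnb2 overlaps it. Of 18 other inflammasome genes, 6 were silent (33.3%, beside 30.3% of all genes) and 8 tested. The edgeR test called 0, beside 10.3% of all genes tested that rose and 7.39% that fell, with 1 at an unadjusted p under 0.05 (12.5%, beside 39.9%). DESeq2 also called 0, beside 16.4% of all genes tested higher and 13.1% lower. Among 23 genes known as NF-kappaB targets, 10 were silent (43.5%, beside 30.3% of all genes), including the chemokines Cxcl1 and Cxcl2, and 12 were tested, of which 1 rose and 1 fell (8.33% each, beside 10.3% and 7.39% of all genes tested). Of these, Sod2, the mitochondrial superoxide dismutase, rose from 459.4 CPM to 954.3 and 1064 (log2 fold change 1.14, SE 0.21, edgeR adjusted p = 0.0347, up to 0.0765 over the alternatives, of which 3 of 7 called it, and with log2 fold changes down to 0.95, under the 2-fold limit), and Birc3, which is also a target, fell. In Sod2, 21.045% of the words occur in another gene.

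**Figure D3:**
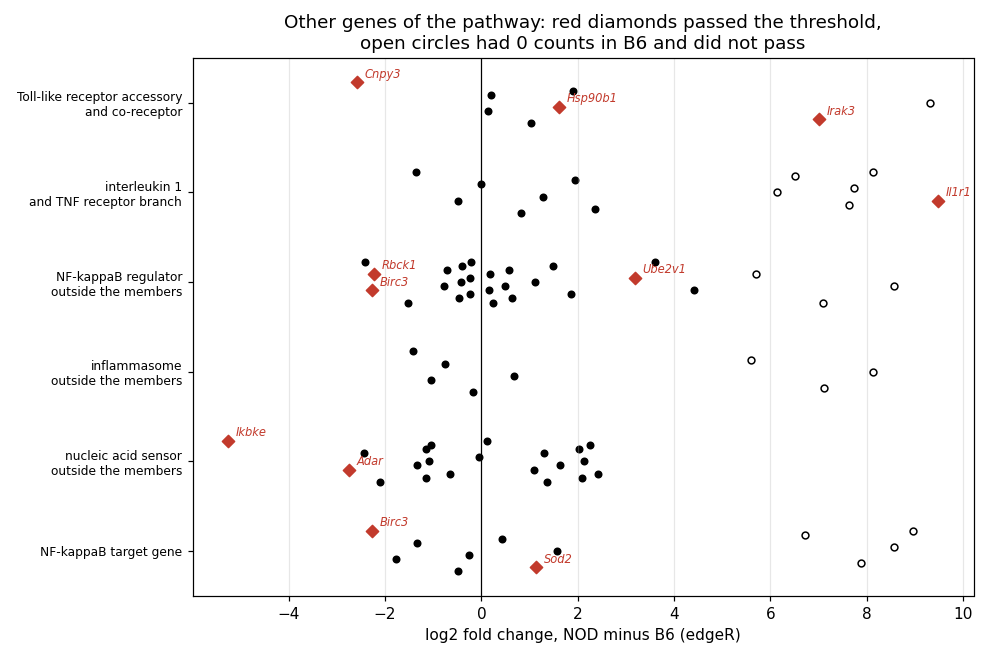
Log2 fold change (NOD minus B6) of the 86 tested genes of the 6 other pathway lists, one symbol per gene in each list it belongs to. Red diamonds passed the threshold and are named, 5 genes right of 0 and 5 left of it; Birc3 stands in 2 lists, and Il1r1 passed with 0 counts in B6.

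The promoters of the 6 silent members that had a sequence were poor in CG dinucleotides. CG-rich promoters are typical of genes used in many tissues, and CG-poor ones of genes used in few. RefSeq promoter sequence of GRCm38.p6 was matched for 39 of the 48 members (81.25%), and the 250 bases before the start site were read. For Il18 that start site lay 10668 bases from the one of the counted transcript. The members without an entry were Ikbkb, Tab1, Zbp1, Relb, Tlr4, Nfkb1, Ripk2, Tlr7 and Tmem173. The 6 promoters of silent members held a median of 3 CG (range 0 to 6), beside 2 for the 4702 silent genes of the table. The 33 promoters of detected members held a median of 12 (range 1 to 49, so some were as poor as the silent ones), beside 14 for 12112 detected genes, and the 15 promoters of members at 10 CPM or more in all libraries held 16, beside 18 for 5253 genes at that level. The members thus followed the order of all genes, and Pycard, the member with the highest mean level per length, did not, with 2 CG. To show this contrast, the promoters of 3 abundant members are printed 5′ to 3′ with CG in capitals, Map3k7 with 28 CG (chr4:31963857-31964106, plus strand), Irak1 with 13 (chrX:74023922-74024171, minus strand) and Pycard (chr7:127993868-127994117, minus strand), beside those of silent Casp1 with 1 (chr9:5298267-5298516, plus strand) and silent Tlr9 with 0 (chr9:106222348-106222597, plus strand).
Map3k7: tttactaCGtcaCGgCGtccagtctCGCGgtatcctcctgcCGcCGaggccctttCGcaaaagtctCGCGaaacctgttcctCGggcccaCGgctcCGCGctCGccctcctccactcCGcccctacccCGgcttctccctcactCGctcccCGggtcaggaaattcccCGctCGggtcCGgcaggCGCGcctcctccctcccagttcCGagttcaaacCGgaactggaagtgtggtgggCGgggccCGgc
Irak1: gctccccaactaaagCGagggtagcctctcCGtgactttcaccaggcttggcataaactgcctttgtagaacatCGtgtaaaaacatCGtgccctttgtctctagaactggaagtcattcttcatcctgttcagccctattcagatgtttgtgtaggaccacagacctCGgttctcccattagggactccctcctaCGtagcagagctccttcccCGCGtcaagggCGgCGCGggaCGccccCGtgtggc
Pycard: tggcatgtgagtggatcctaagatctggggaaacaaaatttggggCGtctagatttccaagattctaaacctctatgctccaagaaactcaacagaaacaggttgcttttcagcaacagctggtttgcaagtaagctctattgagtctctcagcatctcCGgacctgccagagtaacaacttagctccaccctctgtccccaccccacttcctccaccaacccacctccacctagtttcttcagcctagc
Casp1: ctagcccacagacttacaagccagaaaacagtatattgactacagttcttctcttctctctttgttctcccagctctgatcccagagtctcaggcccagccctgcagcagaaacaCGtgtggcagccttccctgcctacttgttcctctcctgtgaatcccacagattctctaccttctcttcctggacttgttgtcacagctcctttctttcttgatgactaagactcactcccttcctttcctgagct
Tlr9: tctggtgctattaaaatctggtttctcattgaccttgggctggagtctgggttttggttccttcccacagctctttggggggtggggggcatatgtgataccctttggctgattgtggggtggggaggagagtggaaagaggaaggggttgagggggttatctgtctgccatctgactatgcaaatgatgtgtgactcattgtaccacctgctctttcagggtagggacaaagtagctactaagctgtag

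**Figure D4:**
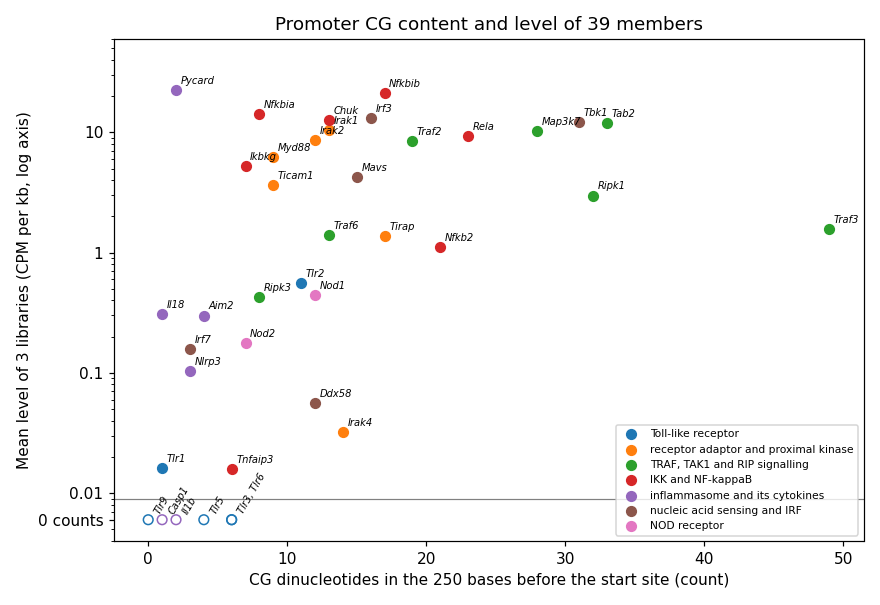
CG dinucleotides in the 250 bases before the start site (x axis, count) and mean level of the 3 libraries (y axis, CPM per kb, log axis) of the 39 members with a promoter sequence, coloured by role. The open symbols of the 6 silent members lie between 0 and 6 CG, and Pycard stands at the top with 2 CG.

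The promoters were also searched on both strands for the kappaB consensus of NF-kappaB. A match was found in 6 of 39 member promoters (15.4%), beside 705 of all 16814 promoters (4.19%). The genes with a match were Tlr2, Tlr3, Traf3, Map3k7, Nfkb2 and Nfkbia, so they included a silent receptor (Tlr3), abundant genes that did not pass the test (Map3k7, Traf3, Nfkbia), and Tlr2 and Nfkb2, which were higher and lower in both NOD libraries without passing the test. Of the 4 members that fell, Irak1 had a promoter sequence, and it held no match. A match is a run of letters in this window and is not evidence of binding. The promoters of Tlr2 (chr3:83841609-83841858, minus strand), higher in both NOD libraries, and Nfkb2 (chr19:46304487-46304736, plus strand), lower in both, are shown 5′ to 3′ with the matching stretches in capitals, 1 in Tlr2 and 2 in Nfkb2.
Tlr2: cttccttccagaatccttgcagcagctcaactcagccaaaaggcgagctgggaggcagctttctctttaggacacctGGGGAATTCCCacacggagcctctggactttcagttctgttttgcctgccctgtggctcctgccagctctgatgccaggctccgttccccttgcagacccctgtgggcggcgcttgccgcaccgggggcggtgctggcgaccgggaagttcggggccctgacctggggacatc
Nfkb2: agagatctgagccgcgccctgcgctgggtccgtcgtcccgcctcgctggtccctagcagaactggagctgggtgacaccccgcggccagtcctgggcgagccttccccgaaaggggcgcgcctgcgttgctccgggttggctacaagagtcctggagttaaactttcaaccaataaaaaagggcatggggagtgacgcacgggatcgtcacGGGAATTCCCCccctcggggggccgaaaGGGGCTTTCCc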

How the data were processed

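RNA of mouse blastocysts was sequenced in 3 SMART-Seq V4 low-input libraries (1 B6, 2 NOD), grouped by the strain in the labels. The authors amplified cDNA with 19 cycles of PCR, aligned single-end reads to mm10 with STAR and deposited HOMER counts per RefSeq gene, made on the exons of 1 transcript, on both strands together and without normalization, so that overlapping genes cannot be told apart. The processing notes name STAR 2.2.0c and CASAVA 1.8.2, and the methods name another STAR version. mm10 is a B6 genome, and the effect of NOD sequence differences on alignment was not tested.

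The 48 members and all gene lists were chosen with earlier results of these data known. The result for 1 gene of these lists is left out here. Named in full are members past the threshold, the highest and lowest of each role, Aim2, Tlr2 and Pycard, and members at 0 in one strain with at least 10 counts in the other. Genes were kept by filterByExpr (minimum count 10), scaled by TMM factors (1.090 for B6, 0.975 and 0.941 for NOD) and tested with edgeR 4.0.16 (glmQLFit, trended dispersion, prior count 0.125, 1 residual degree of freedom) in R 4.3.3, and p-values were adjusted over 14456 genes. The method was tested on simulated data. Standard errors were obtained from the log2 fold change and the square root of F. Ratios against a B6 count of 1 to 13 have exact Clopper-Pearson 95% intervals. Alternatives were DESeq2 size factors, total counts only, upper-quartile factors, no filter, DESeq2 1.42.0, limma-voom (limma 3.58.1), each NOD library left out, and, added after seeing the data, the default dispersion of edgeR. Shared 50-base words were counted over annotated transcripts with Python 3.11.15.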

Additional observations from a re-analysis of the deposited data

How the results depend on the processing

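No paired analysis was possible because there is only 1 B6 library and the groups therefore share fewer than 2 numbers. With the members, 0 higher and 4 lower in NOD became 1 and 7 in DESeq2, and 0 and 0 in limma-voom and with no filter on low counts, where 7 and 11 members still had an unadjusted p under 0.05. Over all genes, 1483 higher and 1069 lower became 2365 and 1887 in DESeq2, and 0 and 0 in limma-voom and with no filter (3924 and 5568 genes at an unadjusted p under 0.05). With upper-quartile factors 701 genes were lower, and Relb was no longer called. DESeq2 size factors, total counts only and the default dispersion of edgeR each called 5 members lower, Irak2 being the addition. The share of calls that were higher was 58.1% as reported, 47.8% with total counts only and 47.3% with the default dispersion. The median log2 fold change of the members was -0.34 as reported, -0.52 with total counts only, which moved that of all genes from 0.26 to 0.07, and -0.53 to -0.28 when a NOD library was left out, which leaves no test. With total counts only, the log2 fold changes of Traf3 and Map3k7 turned to -0.061 and -0.10. The direction of Map3k7 and Nod1 also turned without NOD 1 and that of Irf7 without NOD 2, and Aim2 was at 0 without NOD 1. The causes of these changes were not tested. Irak1, Tab1, Relb and Zbp1 kept their direction under each alternative, and the shallower B6 library limits what can be seen of genes at 0 counts in B6.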
